A study of Mus musculus with 96 samples.

Results

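Among 30170 chromatin peaks listed for mouse liver macrophages, 403 were more open in fasted than in fed mice after both 3 and 8 h without food. The peaks were selected on these measured values. The difference L is log2 of the mean fasted level plus 2 minus log2 of the mean fed level plus 2, and the mean of L at 3 and 8 h had to reach 0.5 with each of them above 0.2. Differences at 3 and 8 h are therefore a description of how the peaks were chosen and carry no test. The fasted and fed mice at 16 and 24 h, and all hepatocyte mice, played no part in the choice.

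Accessibility was measured by ATAC-seq, in which a transposase cuts open chromatin and the cuts are sequenced. Nuclei were taken by INTACT, a bead capture of nuclei tagged in 1 cell type, from livers of female MAC-INTACT mice (macrophages) or HEP-INTACT mice (hepatocytes). What drives the tag in each line is not given in the sources used here. Food was withheld for 3, 8, 16 or 24 h beginning at ZT12, the start of the dark and active phase, and ad libitum fed mice were taken at matching times. The 4 times fall at ZT15, ZT20, ZT4 and ZT12. Each of the 8 groups per cell type held 4 mice, and no mouse was sampled at 2 times. The macrophage libraries were run as technical duplicates that the authors had joined into 1 value per mouse.

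Levels are the authors' normalized reads in a peak of 200 bp, and reads in listed macrophage peaks, inferred from the smallest step between a library's values, ran from 1729720 to 4637873 per mouse. Of the Kupffer cell and macrophage markers, 18 of 18 had a peak within 1 kb of the transcription start site (TSS), with a summed level from 2758 to 3547 over the 32 mice. None of the 16 hepatocyte, 11 stellate cell, 7 cholangiocyte or 15 lymphocyte markers had one listed. Of 12 monocyte and neutrophil markers 2 had one, S100a8 and Csf3r, with sums from 65.1 to 124. At 16 h these sums were from 98.0 to 124 in fasted and from 73.3 to 93.1 in fed mice, without overlap, and at 24 h from 87.5 to 108 and 65.1 to 98.9. At 3 h they ran from 70.1 to 96.4 in fasted and 82.4 to 99.8 in fed mice, and at 8 h from 83.8 to 92.8 and 74.1 to 111. Their part in the results was not tested, and defining markers such as Ly6c2, Ccr2 and Ly6g had no listed peak there. Of 12 sinusoidal endothelial markers only Lyve1 had one. Its level ran from 28.5 to 34.1 in fed and 32.7 to 42.5 in fasted mice at 3 h, 18.3 to 30.6 and 24.0 to 31.6 at 8 h, 23.2 to 36.7 and 11.6 to 26.7 at 16 h, and 24.4 to 49.5 and 40.5 to 56.9 at 24 h. Both ends of the range were thus higher in fasted mice at 3, 8 and 24 h, with overlap, and lower at 16 h, and its part in the results was not tested. The other endothelial markers, such as Stab2, Pecam1 and Kdr, had no listed peak there. In such bulk samples, fewer cells of a type and less signal per cell cannot be told apart.

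Fasting lowers insulin and raises glucagon and glucocorticoids, and glucocorticoids also rise and fall with the time of day. The glucocorticoid receptor is a hormone-activated transcription factor that binds DNA mostly away from promoters and, in macrophages, is known both for raising anti-inflammatory genes and for damping inflammatory ones. Kupffer cells, the resident macrophages of the liver, line the sinusoids and clear particles and dying cells from the blood.

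Sequence was at hand only for short windows around RefSeq start sites (build GRCm38.p6), from 250 bases before to 50 after the start. A member reached 25 such windows. The letters ACANNNTGT (the same on both strands), the core of the glucocorticoid receptor element, stood in 7 of these 25 windows, or 28.0%. The same letters stood in 3.36% of the 9716 windows that any macrophage peak reached and in 6.85% of all 32817 windows. Windows at early-opened peaks had a median GC content of 55.0%, against 62.3% at all macrophage peaks and 52.7% in all windows, so base composition differed too. In 5 of the 25 stretches where peak and window overlap, the core lay inside the peak itself. This was not counted for the other macrophage peaks, and the shares above are for whole windows. The members outside such windows, which are most of the 403, were not searched. The match is a description of letters and shows no binding.

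The stretches below are the parts of 5 early-opened peaks before the start site, read 5′ to 3′ on the strand of the window's gene, with the receptor element core in capitals. They are shown because, of the letter patterns searched, the core is the one in which these windows stood furthest from the other macrophage windows. Mt1 encodes a metal-binding metallothionein, Slc10a6 a transporter of sulphated steroids, and Rcsd1 a binding partner of actin capping protein. The Rcsd1 stretch lies before the start of a predicted gene. For contrast, stretches at Ccl17, a chemokine gene, and Sgk1, a kinase gene and known glucocorticoid target, hold no core in the bases shown. They lie at chr8:94178977-94179088 (Mt1, + strand), chr5:103629522-103629653 (Slc10a6, - strand), chr1:165717716-165717916 (Rcsd1, + strand), chr8:94810203-94810284 (Ccl17, + strand) and chr10:21993640-21993689 (Sgk1, + strand).
Mt1: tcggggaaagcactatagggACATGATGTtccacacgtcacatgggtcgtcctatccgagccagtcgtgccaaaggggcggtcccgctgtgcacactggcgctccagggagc
Slc10a6: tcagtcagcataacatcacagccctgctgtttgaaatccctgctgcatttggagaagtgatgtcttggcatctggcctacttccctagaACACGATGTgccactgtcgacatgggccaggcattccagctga
Rcsd1: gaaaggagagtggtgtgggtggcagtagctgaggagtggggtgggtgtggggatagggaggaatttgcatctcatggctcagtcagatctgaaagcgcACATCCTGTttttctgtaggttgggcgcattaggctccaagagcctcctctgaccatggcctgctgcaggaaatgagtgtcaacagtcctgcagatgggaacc
Ccl17: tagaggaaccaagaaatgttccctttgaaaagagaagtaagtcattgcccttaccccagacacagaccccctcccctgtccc
Sgk1: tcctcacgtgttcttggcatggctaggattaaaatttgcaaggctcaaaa

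The members lay mostly away from start sites. Introns held 46.9% of them and intergenic DNA 43.7%, while promoter annotations held 5.46%. Among all macrophage peaks these shares were 29.7%, 24.9% and 39.7%. The median distance to a TSS was 18421 bp, against 1708 bp for all peaks, and 33 of 403 lay within 1 kb of one. Their level in fed mice at 16 and 24 h was low, with a median of 30.7 normalized reads against 60.7 over all peaks. A peak is named here by the gene with the nearest TSS, which does not show that the peak acts on that gene. Negative distances lie upstream of that TSS.

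The 403 peaks had 280 nearest genes, of which 72 had 2 or more members and 16 had 4 or more. Chained at 20 kb, they formed 296 loci, and 63 loci with 2 or more held 170 of the members. Peaks of 1 locus, some of which overlap by a few bases, are not independent of each other. The fullest locus lay upstream of Ddit4, whose product restrains the growth kinase mTORC1, where 9 of the 9 listed macrophage peaks in 16451 bp were members. The Klf13 locus held 7 of 11 and the Fkbp5 locus 6 of 9. These spans begin and end at members, which raises the share within them. Counted over all listed peaks with the same nearest TSS, members were 8 of 9 for Ddit4, 6 of 7 for Armc12, next to Fkbp5 on chromosome 17, 9 of 15 for Klf9, 5 of 11 for Tsc22d3 and 2 of 7 for Klf13. Klf9 and Klf13 encode zinc finger transcription factors, Fkbp5 a co-chaperone that restrains the glucocorticoid receptor, and Tsc22d3 the anti-inflammatory protein GILZ.

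At the selected times the median L of the members was 0.90 at 3 h and 0.64 at 8 h, against -0.00 and -0.07 over all peaks. L was larger at 3 h than at 8 h in 336 of 403. The mean of both was 1 or more in 115 members, from 0.75 to 1 in 76 and under 0.75 in 212. At the limit, a Klf13 peak was just inside at 0.501, and peaks near Rprd2 (0.499) and Il1b (0.498) were just outside. A further 2 peaks reached the mean of 0.5 but were at or under 0.2 at 1 of the times. The mirrored rule, applied to lower levels in fasted mice, found 240 peaks.

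The summed level over the 403 peaks was read in each mouse. In fed mice it was 11198, 13429, 12477 and 12863 at 3 h, 14294, 13123, 13147 and 13200 at 8 h, and 12670, 12814, 12233 and 11906 at 16 h. Fed mice at 24 h, which is ZT12, had 16989, 16564, 19167 and 20812. The fed mice at 3 and 8 h took part in the choice, which favours peaks that are low in them. Their sums therefore give no profile over the day. Of the fed mice outside the choice, all 4 at ZT12 stood above all 4 at ZT4. Fasted mice had 22812, 21622, 27438 and 29153 at 3 h and 21349, 24727, 20951 and 24400 at 8 h. After 16 h they had 13163, 16183, 13162 and 13292, and after 24 h 26589, 28076, 28258 and 29337. At 16 h the lowest fasted mouse (13162) stood just above the highest fed mouse (12814), so the groups did not overlap but lay close. At 24 h they were back at the level of the fasted mice at 3 h and clear of the fed mice of the same hour.

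**Figure D1:**
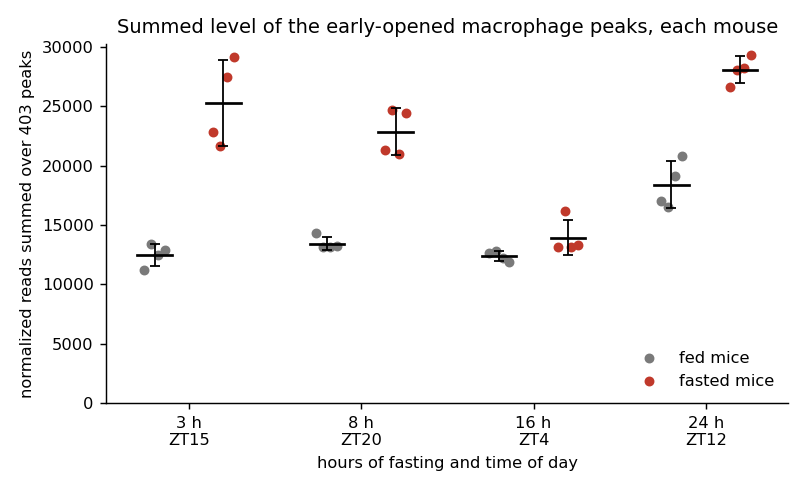
Summed normalized reads over the 403 early-opened macrophage peaks in each mouse (points), with the mean and SD of 4 mice (bars), by hours of fasting and time of day. The 3 h and 8 h mice chose the peaks. Fasted mice at 16 h lie between 13162 and 16183, near the fed mice, and fasted mice at 24 h between 26589 and 29337.

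Library numbers in the labels split each group into 2 earlier and 2 later mice, given here as replicates 1 and 2 against 3 and 4. What the numbers stand for is not stated. In summed level the later mice were higher than the earlier ones in fed mice at 24 h and in fasted mice at 3 h. Fasted mice at 24 h went the same way, with 26589 and 28076 in the earlier and 28258 and 29337 in the later mice. The median difference of the members at 24 h was 0.61 among the earlier and 0.49 among the later mice. For fed mice at ZT12 over ZT4 it was 0.39 among the earlier and 0.64 among the later mice.

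Most members were not called after 16 h of fasting, at ZT4. The 16 h comparison in limma opened 66 of the 403 members and closed 32, at an adjusted p under 0.05. Over all macrophage peaks 3.79% were opened and 17.5% closed, against 16.4% and 7.94% of the members. Their median log2 fold change was 0.14, against -0.10 over all peaks. Centring each library on its median moved the median of all peaks from -0.10 to 0.04, and the members then divided into 122 opened and 12 closed, beside 12.5% and 8.70% of all peaks. Without fasted replicate 1, or without fed replicate 1, 16 members were closed. The summed S100a8 and Csf3r peaks were higher in every fasted than in every fed mouse at this time, as given above. Only 11 members had an L above 1. The lowest L of the 4 times was at 16 h in 326 of 403. Members were chosen for a high L at the early times, so the rule itself favours a later time as the lowest. Between the times outside the choice, L was higher at 24 h than at 16 h in 339 of 403.

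**Figure D2:**
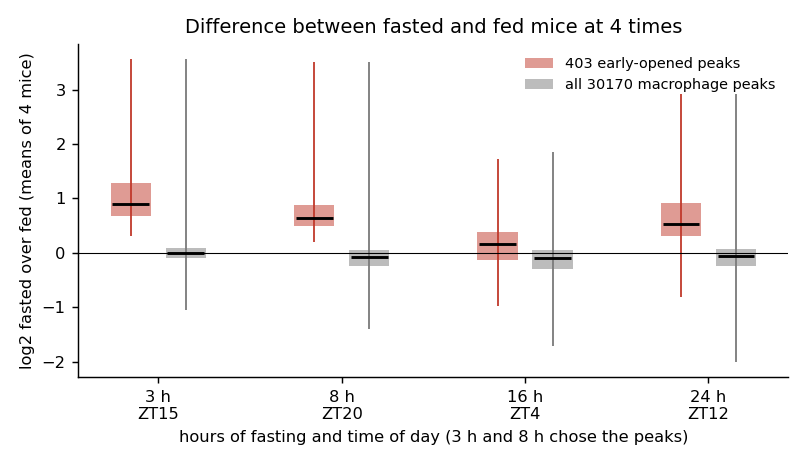
Difference L between fasted and fed mice (log2 of group means plus 2) for the 403 early-opened peaks and for all 30170 macrophage peaks. Boxes span the middle 50% of peaks, black lines are medians and thin lines run from the lowest to the highest peak. The members' median is 0.90, 0.64, 0.16 and 0.53 at 3, 8, 16 and 24 h.

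The members opened at 16 h included peaks in introns of Agfg2 and Sgms1. Agfg2 encodes an ArfGAP-domain protein and Sgms1 a sphingomyelin synthase. The Agfg2 peak (12621 bp from the TSS, chr5:137672032-137672232) read 32.5, 29.3, 23.5 and 28.1 in fed and 153, 69.6, 74.4 and 93.6 in fasted mice at 16 h. The groups did not overlap, and fasted replicate 1 stood far above the rest. The log2 fold change was 1.65 ± 0.15 (SE, adjusted p = 2.45e-10), the largest of the members at 16 h that met the naming rule, and it was 1.26 ± 0.15 at 24 h (adjusted p = 1.52e-07). The Sgms1 peak (-12888 bp) read 25.5, 25.7, 21.9 and 18.3 in fed and 109, 71.7, 36.0 and 41.6 in fasted mice, which is 1.30 ± 0.22 on the log2 scale (SE, adjusted p = 7.55e-05). Here the earlier fasted mice were higher than the later ones. A peak 50716 bp from the TSS of Fos, the AP-1 subunit gene, rose from 7.57 ± 1.81 to 25.6 ± 13.8 normalized reads (SD, n = 4), by 1.41 ± 0.26 (SE, adjusted p = 0.000164).

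Other members were lower in fasted mice at 16 h although they had been chosen for being higher at 3 and 8 h. The Klhl29 intron peak (107400 bp from the TSS, chr12:5268182-5268382) read 68.8, 69.6, 69.6 and 62.3 in fed mice and 31.7, 31.6, 49.9 and 46.0 in fasted mice. All 4 fasted mice were below all 4 fed mice. At 3 h the same peak had been at 59.8 ± 3.88 in fed and 97.8 ± 18.8 in fasted mice (SD, n = 4). Its log2 fold change at 16 h was -0.76 ± 0.13 (SE, adjusted p = 9.16e-05), and at 24 h it was 0.18 ± 0.13 (adjusted p = 0.420). Klhl29 encodes a kelch-like protein. The Fbxo18 intron peak (10831 bp), at the gene of a DNA helicase, read 15.5, 19.1, 11.0 and 24.4 in fed and 4.64, 14.3, 8.18 and 4.46 in fasted mice at 16 h. It fell there by 1.04 on the log2 scale (adjusted p = 0.00156) and at 24 h rose by 0.77 ± 0.24 (SE, adjusted p = 0.0252). The peak named for Podxl lies in intron 17 of Mkln1 and fell from 48.1 ± 8.69 to 24.5 ± 14.3 at 16 h (SD, n = 4, adjusted p = 0.000427), with fasted replicates 1 and 2 at 6.96 and 18.6 and the others at 36.8 and 35.6. Within the later mice alone its log2 difference was -0.30 (adjusted p = 0.355).

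After 24 h of fasting, again at ZT12, 227 of the 403 members, or 56.3%, were opened. The 24 h comparison closed 1, a peak at a clone-named gene, and over all macrophage peaks 3.00% were opened and 8.28% closed. The members' median log2 fold change was 0.56, against -0.06 over all peaks. By the size of the early difference, the count opened was 75 of 212 members with a mean L under 0.75, 49 of 76 from 0.75 to 1, and 103 of 115 at 1 or more. The count closed was 0 without fasted replicate 4 or fed replicate 1. Among the earlier mice alone 192 members were opened and among the later mice alone 108.

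**Figure D3:**
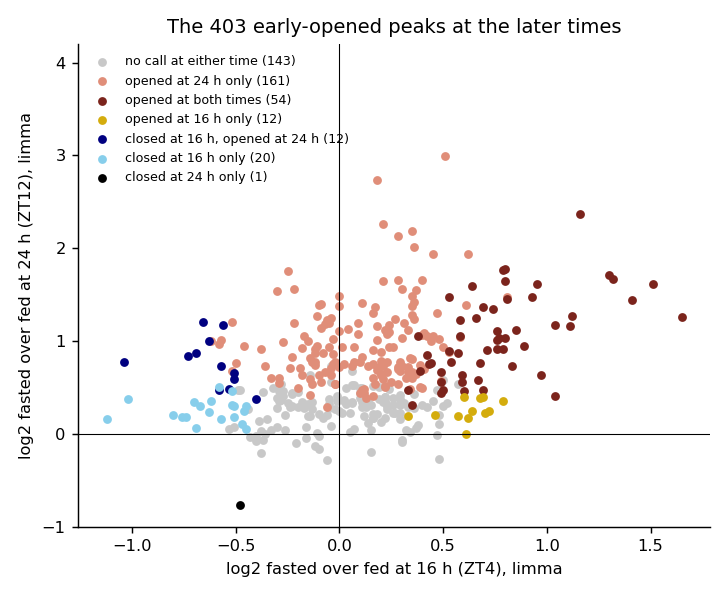
Log2 fold change of each of the 403 early-opened peaks at 24 h (vertical) against 16 h (horizontal), both from limma and from different mice. Colours give the calls at an adjusted p under 0.05, for which both times use the same estimate of a peak's spread. 161 members were opened at 24 h only, 54 at both times, and 12 were closed at 16 h and opened at 24 h.

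No mouse is shared between the groups of the 16 h and the 24 h comparison. Both use the same estimate of a peak's spread, taken from all macrophage mice. Their calls are therefore not fully independent and are crossed here as a description. Of the 66 members opened at 16 h, 54 or 81.8% were also opened at 24 h, against 23.3% of the 1144 macrophage peaks opened at 16 h. Of the 305 members without a call at 16 h, 161 or 52.8% were opened at 24 h, against 2.63% of the 23755 macrophage peaks without one. Of the 32 closed at 16 h, 12 or 37.5% were opened at 24 h, against 0.285% of the 5271 macrophage peaks closed at 16 h. Members closed at 16 h were thus opened at 24 h less often than the other members, which was not tested. Neither time gave a call in 143 members. The change of the fasting effect from 16 to 24 h was tested itself, and 51 of 403 members had a higher effect at 24 h and 0 a lower one, beside 0.331% and 0.0630% of all macrophage peaks. At an unadjusted p under 0.05 these counts were 189 and 3. The count rested on single mice, since it was 24 without fasted 24 h replicate 4, 25 without fed 24 h replicate 2, 29 without fasted 24 h replicate 3 and 31 without fasted 24 h replicate 2.

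The peak with the highest early difference lay -23146 bp from the TSS of Ddit4, at chr10:59974816-59975016. Fed mice read 5.98, 4.78, 5.82 and 4.08 at 3 h and 7.50, 3.01, 5.0 and 5.40 at 8 h. Fasted mice read 59.5, 61.9, 95.3 and 113 at 3 h and 79.4, 89.2, 54.5 and 99.3 at 8 h. A near-silent site was thus open in every early fasted mouse. At 16 h it read 3.09, 2.93, 4.69 and 6.11 in fed and 3.09, 3.59, 8.99 and 7.43 in fasted mice, and the groups overlapped. At 24 h fed mice read 10.8, 12.6, 30.2 and 45.5 and fasted mice 87.5, 85.5, 118 and 112. The site was thus low in both states at 16 h, and at 24 h all fasted mice stood above all fed mice. The log2 fold change was 0.28 ± 0.28 at 16 h (SE, adjusted p = 0.503) and 2.13 ± 0.28 at 24 h (adjusted p = 5.41e-07), and the difference between the times was 1.86 ± 0.39 (adjusted p = 0.0144).

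All 8 members named for Ddit4 were opened at 24 h and 2 of them at 16 h. The one at -13310 bp was higher in fasted mice at 16 h too, with 12.1 ± 1.98 in fed and 29.4 ± 4.38 in fasted mice at 16 h and 18.7 ± 12.5 and 83.3 ± 13.9 at 24 h (SD, n = 4). Its log2 fold change was 1.16 ± 0.30 at 16 h (SE, adjusted p = 0.00427) and 2.37 ± 0.30 at 24 h (adjusted p = 2.53e-07). These neighbouring sites thus had unlike levels at 16 h, which was not tested.

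A peak in intron 5 of Fkbp5 (chr17:28420223-28420423), whose nearest TSS is that of Tulp1, read 14.6, 19.7, 14.1 and 22.8 in fed and 102, 62.6, 109 and 129 in fasted mice at 3 h. At 16 h it read 15.5, 17.6, 12.5 and 11.0 in fed and 5.41, 7.17, 8.99 and 13.4 in fasted mice. Fasted mice were thus mostly lower there, and the log2 difference of -0.62 ± 0.24 missed the threshold (SE, adjusted p = 0.0528). At 24 h it read 32.4, 30.3, 78.3 and 98.9 in fed and 86.0, 111, 123 and 115 in fasted mice, which is 1.00 ± 0.24 on the log2 scale (SE, adjusted p = 0.00330). The later fed mice overlapped the fasted range, and among the later mice alone the change was 0.43 (adjusted p = 0.337). The interaction was 1.63 ± 0.34 (SE, adjusted p = 0.0119).

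Of the immune genes, Ccl17 encodes a chemokine that draws T cells and Cxcr4 a chemokine receptor. The Ccl17 intron 1 peak (618 bp from the TSS, chr8:94810971-94811171) read 9.97, 7.59, 16.0 and 20.8 in fed and 45.5, 55.8, 62.3 and 55.3 in fasted mice at 24 h. At 16 h it read 3.87, 2.93, 6.26 and 2.44 against 5.41, 5.02, 8.99 and 4.46. The 24 h groups did not overlap and both 16 h groups were low. The 24 h change was 1.94 ± 0.29 on the log2 scale (SE, adjusted p = 6.59e-06), and all 4 members at Ccl17 were opened at 24 h. The Cxcr4 peak (-22698 bp) read 13.3, 16.0, 35.6 and 35.1 in fed and 46.9, 62.9, 60.9 and 62.3 in fasted mice at 24 h, a change of 1.27 ± 0.29 (SE, adjusted p = 0.00228). Among the later mice alone this was 0.77 (adjusted p = 0.172). All 4 members at Cxcr4 were opened at 24 h and 1 at 16 h.

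**Figure D4:**
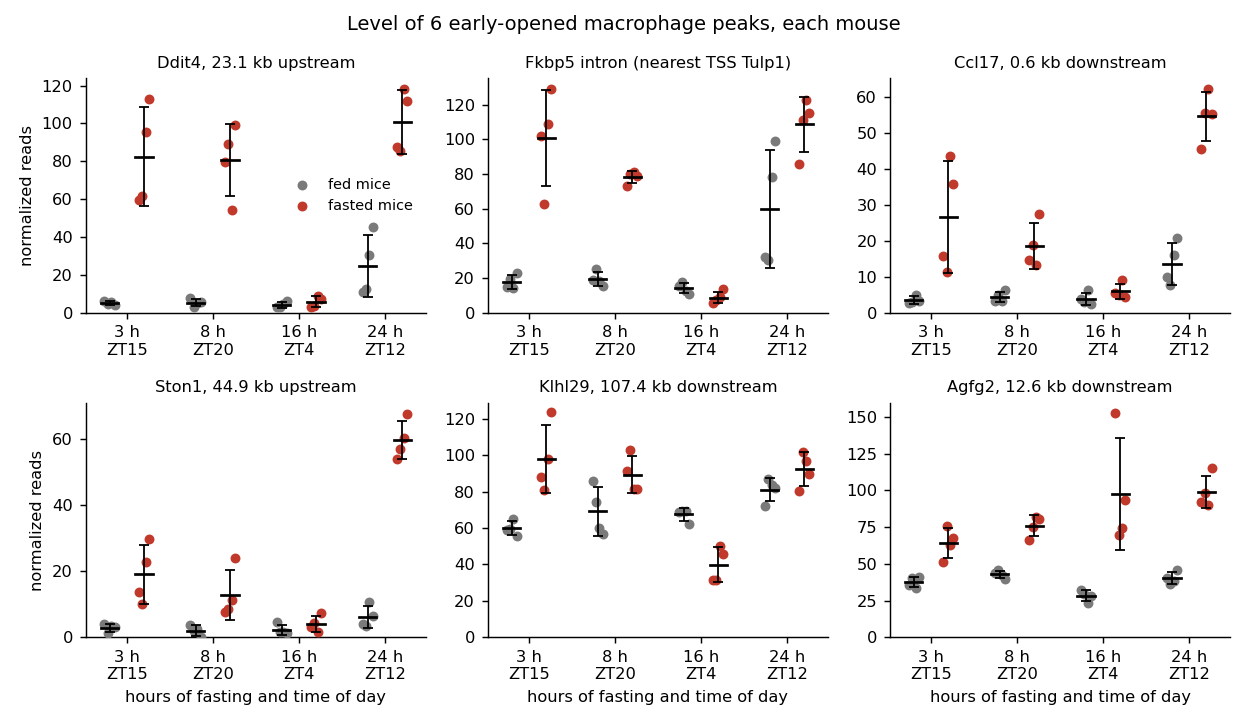
Normalized reads of 6 early-opened peaks in each mouse (points), with mean and SD of 4 mice (bars). The Ddit4, Fkbp5 intron, Ccl17 and Ston1 peaks are low in both states at 16 h and high in fasted mice at 24 h, the Klhl29 peak is lower in fasted mice at 16 h, and the Agfg2 peak is higher in fasted mice at all 4 times.

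Some members had their highest fasted level at 24 h. The peak named for Ston1 lies in intron 19 of Ppp1r21, a regulatory subunit gene of protein phosphatase 1, at chr17:88581517-88581717. It read 3.99, 1.19, 3.33 and 3.26 in fed and 13.8, 9.97, 22.9 and 29.8 in fasted mice at 3 h, and 4.15, 3.37, 10.7 and 6.51 against 54.0, 57.0, 60.2 and 67.5 at 24 h. Its log2 fold change at 24 h was 2.99 ± 0.33 (SE, adjusted p = 2.50e-08), and every fasted mouse at 24 h stood above every other mouse. A peak 74196 bp from Rgs2, a gene of a brake on G protein signalling, read 7.48, 1.69, 7.12 and 5.21 in fed and 39.1, 47.5, 46.2 and 43.2 in fasted mice at 24 h. Its change was 2.73 ± 0.30 (SE, adjusted p = 2.97e-08) and its interaction 2.55 ± 0.43 (SE, adjusted p = 0.00145). Upstream of Wasf2, an actin regulator gene, a peak (-22573 bp) read 17.4, 16.9, 17.8 and 14.3 in fed and 53.3, 49.3, 48.9 and 59.7 in fasted mice at 24 h. It had 17.1 ± 3.17 in fed and 14.9 ± 5.88 in fasted mice at 16 h (SD, n = 4), and the interaction was 1.78 ± 0.29 (SE, adjusted p = 0.00117). The Fosl2 peak (-50689 bp), at the gene of an AP-1 subunit, was called in opposite directions, at -0.66 ± 0.22 at 16 h (SE, adjusted p = 0.0257) and 1.21 ± 0.22 at 24 h (adjusted p = 0.000147).

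Part of the members also differed between fed mice of 2 times of day. At ZT12 123 of 403 were higher than at ZT4 and 0 were lower, beside 0.948% and 0.136% of all macrophage peaks. At an unadjusted p under 0.05 the counts were 271 and 1. The median was 0.51, against 0.00 over all peaks. The ZT12 mice are the fed mice of the 24 h comparison, so that a high fed level there also lowers the fasting difference at 24 h, and no overlap of the 2 sets of calls is given. Without fed 24 h replicate 4 the count was 79. Among the earlier mice alone it was 15, and among the later mice alone it was 154.

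The peaks named by the rule for the fed mice lay near Armc12, Bcl2l1, Tsc22d3 and Klf9. The Armc12 peak (-12656 bp, chr17:28518105-28518305) read 36.3, 32.3, 46.2 and 42.8 in fed mice at ZT4 and 111, 108, 146 and 138 at ZT12, a log2 difference of 1.63 ± 0.14 (SE, adjusted p = 1.13e-11). The Bcl2l1 intron 2 peak (22203 bp), at the gene of the survival protein BCL-xL, read 73.5, 85.0, 82.1 and 89.2 at ZT4 and 174, 187, 173 and 239 at ZT12 (1.20 ± 0.12 (SE), adjusted p = 6.40e-10). At ZT12 its fasted mice read 221, 252, 224 and 257 and overlapped the fed ones. Its fasting difference there was 0.31 ± 0.12 (SE, adjusted p = 0.0731). All 5 Tsc22d3 members and all 6 Armc12 members were higher in fed mice at ZT12, and 4 of 9 Klf9 members were. Only 1 of the 5 Tsc22d3 members was opened at 24 h, at 29092 bp (32.5 ± 10.1 in fed and 58.8 ± 6.02 in fasted mice, SD, n = 4, adjusted p = 0.00476), while 6 of 6 at Armc12 and 7 of 9 at Klf9 were.

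Of the gene lists used here, the glucocorticoid response list held the most members. Of its 135 macrophage peaks within 50 kb of a list gene's TSS, 30 or 22.2% were members, against 1.34% of all macrophage peaks. This share describes the choice of peaks at 3 and 8 h and is not tested. The 9 genes were Cd163, Ddit4, Dusp1, Fkbp5, Hif3a, Klf9, Mt1, Sgk1 and Tsc22d3. Of these 30 members, 22 were opened and 0 closed at 24 h, 8 were opened and 2 closed at 16 h, and 16 were higher and 0 lower in fed mice at ZT12 than at ZT4. Over all 403 members, 56.3% were opened at 24 h, 16.4% were opened and 7.94% closed at 16 h, and 30.5% were higher at ZT12. The difference between these 30 and the other members was not tested. The median over all 135 list peaks was 0.14 at 24 h and -0.01 at 16 h, against -0.06 and -0.10 over all peaks.

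Within that list, Hif3a encodes a hypoxia-inducible factor subunit. Its peak in intron 1 (-1651 bp, chr7:17058230-17058430) read 73.9, 91.9, 156 and 181 in fed and 247, 274, 265 and 273 in fasted mice at 24 h, by 1.16 ± 0.16 (SE, adjusted p = 2.41e-06). At 16 h the means were 43.9 ± 5.70 and 49.9 ± 5.34 (SD, n = 4), and its groups overlapped. The neighbouring Hif3a peak at -1852 bp had a log2 fold change of -0.40 at 16 h (adjusted p = 0.0236) and 0.38 at 24 h (adjusted p = 0.0480). The difference between the neighbours was not tested. Dusp1 encodes a phosphatase that switches off MAP kinases, and 2 of its 4 members were opened at 16 h and 3 at 24 h. The Mt1 promoter peak, whose sequence is given above, read 204, 212, 192 and 210 in fed and 341, 309, 242 and 181 in fasted mice at 16 h. Its log2 fold change was 0.35 ± 0.10 at 16 h (SE, adjusted p = 0.0124) and 0.31 ± 0.10 at 24 h (adjusted p = 0.0408), and the groups overlapped at 16 h.

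The anti-inflammatory and clearance list had 8 members among 103 peaks, or 7.77%, against 1.34% of all macrophage peaks. Of these, 5 lay at Tsc22d3, in 1 locus of 25450 bp, and 1 each at Cd163, Stab1 and Timd4. Cd163 and Tsc22d3 are also in the glucocorticoid list. Over the list as a whole, 2 of the 103 peaks were opened and 29 closed at 16 h, with a median of -0.21. Over all macrophage peaks 3.79% were opened and 17.5% closed, with a median of -0.10. For all macrophage peaks over 1 kb from a TSS these values were 2.61%, 25.7% and -0.22. The list values are near the latter, and the list was not split by position. Timd4 encodes the receptor TIM-4 for phosphatidylserine on dying cells and marks resident Kupffer cells. Its peak (-25613 bp) read 19.3, 25.7, 14.9 and 12.2 in fed mice at ZT4 and 41.5, 43.0, 55.2 and 50.8 at ZT12 (1.35 ± 0.19 on the log2 scale (SE), adjusted p = 7.90e-06). Its fasting difference was 0.64 ± 0.19 at 16 h (SE, adjusted p = 0.0128), which lost its call without fasted replicate 2 (adjusted p = 0.0701) or fed replicate 4 (adjusted p = 0.0710). The Cd163 member, at the gene of the haemoglobin scavenger receptor, was also higher in fed mice at ZT12, by 1.06, and was not called at 16 or 24 h (-0.19 at 24 h, adjusted p = 0.566). The cytokine and growth factor receptor list had 5 members among 100 peaks, at Cxcr4 and Il6ra, and 4 of them were opened at 24 h. The Il6ra peak (686 bp) was opened at 16 h by 0.57 ± 0.18 (SE, adjusted p = 0.0161) and not when fasted replicate 1 (adjusted p = 0.0742) or fed replicate 4 (adjusted p = 0.0680) was left out.

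The insulin signalling and FOXO list had 2 members among 50 peaks, both near Pik3r1, the regulatory subunit gene of PI3 kinase. The one at -28913 bp read 13.3, 11.8, 29.4 and 35.1 in fed and 60.4, 54.6, 49.5 and 57.9 in fasted mice at 24 h, by 1.37 ± 0.27 (SE, adjusted p = 0.000373). All fasted mice were above all fed mice, and among the later mice alone the change was 0.70 (adjusted p = 0.214). Autophagy and lysosome genes had 1 member among 74 peaks, or 1.35% (Ctsb, the protease cathepsin B). Immediate early genes had 1 among 106, or 0.943% (Fos). Both shares are near the 1.34% of all macrophage peaks. The Ctsb peak had 27.1 ± 7.45 in fed and 35.2 ± 3.73 in fasted mice at 24 h (SD, n = 4, adjusted p = 0.193). No member was named for a gene of the lists used for the circadian clock (44 peaks), fatty acid oxidation and ketogenesis (25), cholesterol synthesis (36), the NF-kB inflammatory response (106), the interferon response (85), antigen presentation (48) or macrophage lipid handling (87). Members were 1.34% of all macrophage peaks, so lists of these sizes would hold few or no members at that share. Their lack of members is therefore no result about these genes. These lists are short and do not hold every gene of their kind. Outside them, members were named for Noct, a gene with circadian expression (2), Eci2, a beta-oxidation enzyme gene (1), and Vcam1 (5) and Birc3 (1), which are known NF-kB targets, all named after their values were seen.

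Among the macrophage markers themselves, 2 of 101 peaks or 1.98% were members, near the 1.34% of all macrophage peaks. They lay at Timd4 and at the promoter of Adgre1, which encodes the macrophage surface protein F4/80. The Adgre1 peak read 36.6, 32, 22.2 and 24.7 in fed and 28.4, 46.3, 41.5 and 54.5 in fasted mice at 24 h. The groups overlapped, and the difference of 0.52 ± 0.20 missed the threshold (SE, adjusted p = 0.0890). Without fasted replicate 1 it passed (0.69, adjusted p = 0.0352).

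Hepatocyte peaks were listed in a table of their own that was normalized separately, so that no test was made between the cell types and values are set side by side. A hepatocyte peak overlapped 91 of the 403 members, or 22.6%, against 46.9% of all macrophage peaks. Over 1 kb from a TSS the shares were 18.6% of 370 members and 17.0% of all macrophage peaks, so that away from start sites the members were shared about as often as other peaks. Of the 91 shared members 69 lay over 1 kb from a TSS, against 2721 of the 14136 shared macrophage peaks. Hepatocyte peaks at members and at any macrophage peak thus differ in position, and the hepatocyte calls were not split by it. The 91 members met 104 hepatocyte peaks.

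At these 104 hepatocyte peaks, fasting opened 74 and closed 0 at 3 h, and 73 and 0 at 8 h. Over all 46827 tested hepatocyte peaks 11.3% were opened and 10.3% closed at 3 h, and 20.3% and 13.7% at 8 h. Among the 14196 hepatocyte peaks that overlap any macrophage peak the opened share was 6.57% and 18.2%. No hepatocyte value entered the choice of members. Opened at both 3 and 8 h were 61 of the 104 or 58.7%, against 7.26% of all hepatocyte peaks and 4.32% of those at any macrophage peak. Unadjusted p under 0.05 gave 83 opened and 0 closed at 3 h and 79 and 0 at 8 h.

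At 16 h 28 of the 104 were opened and 2 closed, beside 19.0% and 12.8% of all hepatocyte peaks. At 24 h 47 were opened and 2 closed, beside 25.3% and 11.4%. Among hepatocyte peaks at any macrophage peak 20.8% were opened at 16 h and 43.9% at 24 h. The 26.9% and 45.2% at the members are near those shares, though the sets differ in position as given above. In all, 14 of 104 or 13.5% were opened at all 4 times, against 1.68% of all hepatocyte peaks and 1.00% of those at any macrophage peak, and 12 were called at none.

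**Figure D5:**
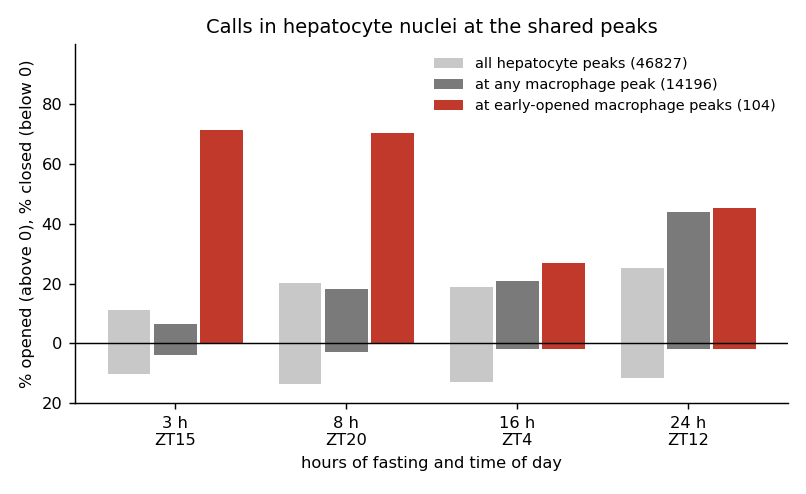
Share of hepatocyte peaks opened (above 0) and closed (below 0) by fasting at an adjusted p under 0.05, for all 46827 tested, for the 14196 that overlap any macrophage peak and for the 104 at early-opened macrophage peaks. At the last, 71.2% and 70.2% were opened at 3 and 8 h, and 26.9% and 45.2% at 16 and 24 h.

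In hepatocytes the peak in Fkbp5 intron 5 read 0.642, 1.48, 2.06 and 2.18 in fed and 70.1, 20.5, 67.6 and 34.0 in fasted mice at 3 h. The log2 fold change was 3.67 ± 0.56 (SE, adjusted p = 1.10e-05), the largest at 3 h among those named. At 8 h the fasted mice fell apart, at 3.56, 56.5, 3.45 and 71.0, with 2 of 4 near the fed level. The same mice were the lower ones over the whole set, since the summed level of the 104 peaks was 5659, 8344, 5767 and 8439 in fasted mice at 8 h and from 4021 to 4291 in fed mice. At 16 h this peak was near 0 in both states (1.28 ± 0.968 and 2.28 ± 2.77, SD, n = 4), and at 24 h 22.8 ± 2.53 in fed and 64.1 ± 8.94 in fasted mice (SD, n = 4, adjusted p = 0.0458). That last call was lost when any 1 of the 8 mice at 24 h was left out (adjusted p from 0.0537 to 0.0925).

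The Ddit4 site at -18478 bp (chr10:59970148-59970348) was a peak in both cell types. In hepatocytes its level rose from 3.37 ± 2.52 to 29.2 ± 15.8 at 3 h (SD, n = 4, adjusted p = 0.000109) and from 7.29 ± 2.42 to 32.4 ± 6.57 at 24 h (SD, n = 4, adjusted p = 0.00150), and at 16 h the change was 0.42 ± 0.45 (SE, adjusted p = 0.493). In macrophages the same site had log2 differences of 0.28 ± 0.25 at 16 h (SE, adjusted p = 0.453) and 1.66 ± 0.25 at 24 h (adjusted p = 1.09e-05). Both cell types thus had a call at 24 h and none at 16 h. Other shared sites stayed open in fasted hepatocytes at 16 h. The Armc12 site at -7661 bp read 14.0, 7.67, 14.7 and 9.56 in fed and 57.0, 67.5, 86.6 and 62.8 in fasted hepatocytes at 16 h (2.41 ± 0.20 (SE), adjusted p = 5.51e-11). In macrophages L there was 1.5, 1.79, 0.55 and 1.14 at 3, 8, 16 and 24 h. The Mt1 promoter peak rose in hepatocytes from 69.7 ± 6.91 to 238 ± 37.3 at 3 h (SD, n = 4, adjusted p = 1.39e-09), with a macrophage L of 0.67 at that time.

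The few hepatocyte peaks closed at members lay near Ext1 (16 and 24 h), a heparan sulphate synthesis gene, near Klf13 (16 h) and near Tsc22d3 (24 h). Of the 2 closed at 16 h, 1 was left without fasted replicate 1, 3 or 4 or fed replicate 1, 2 or 4, and 4 were closed without fasted replicate 2. At 24 h 1 was left without fed replicate 2. At the Tsc22d3 site (13264 bp) hepatocytes rose at 3 h by 0.85 ± 0.23 (SE, adjusted p = 0.00706). At 24 h they fell from 30.9 ± 8.36 to 18 ± 4.16 (SD, n = 4, adjusted p = 0.0171). The macrophage L there was 1.02 at 3 h and 0.35 at 24 h. This fall lost its call without fasted replicate 1 (adjusted p = 0.0779) or fed replicate 2 (adjusted p = 0.0788).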

How the data were processed

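The deposited values are a normalized signal per peak and mouse, in 1 table per cell type, made by the authors from ATAC-seq reads with BWA 0.7.5a-r405, SAMtools, HOMER and DESeq2 on mm10, per the submitters' processing notes. Those notes do not give the roles of the tools. Members and lists were chosen with earlier results of these data known. Log2(signal + 2) was fitted with limma on the 8 groups of a cell type, with a variance trend. P-values were adjusted by Benjamini-Hochberg over all tested peaks, called under 0.05, and measure the spread between mice. Peaks with a mean under 10 were left out (0 macrophage, 5 hepatocyte). Named peaks are 1 per gene: the members with the highest mean L, those with the smallest p among called ones in each contrast, up to 2 members of highest mean L per gene list, the hepatocyte peaks with the largest called changes, the members at the limit of the rule and the genes with most members, with predicted and clone-named genes passed over. The Mt1 peak in macrophages, the Cd163 peak and the Hif3a peak at -1852 bp fall outside this rule and were chosen after their values were seen. A further named peak is not reported here. The script was tested on simulated data. Reads in peaks, inferred from the smallest step between a library's values, ran from 1729720 to 4637873 per macrophage mouse and from 2458156 to 6098645 per hepatocyte mouse. Alternatives changed the offset, filter, scaling, groups fitted, block and mice.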

Additional observations from a re-analysis of the deposited data

Results flagged for a closer look

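In 13 of 216 groups of 4 mice tested, 1 mouse stood far from the other 3, where chance gives about 1 in 20. In fasted mice at 24 h these were the Cxcr4 peak (46.9 in replicate 1, the others 60.9 to 62.9) and the Il6ra peak (48.4 in replicate 4, the others 36.8 to 38.0). In fasted mice at 3 h replicate 2 was low at the Tsc22d3 peak (41.3), the Adgre1 peak (29.2) and the Mt1 peak (224), and replicate 4 was high at the Ctsb peak (46.7). In fed mice at 8 h replicate 1 was high at the Hif3a peak (68.1) and over the summed members (14294), and replicate 4 was low at the Fosl2 peak (9.89). In fed mice at 16 h replicate 1 was high at the Ston1 peak (4.64) and replicate 4 low at the Klhl29 peak (62.3). In fasted mice at 16 h replicate 2 was high at the Wasf2 peak (23.7) and over the summed members (16183).

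The fasting effect differed between 16 and 24 h in 51 members by the test of the difference itself in limma. Among the named peaks it was 1.78 at Wasf2, 1.72 at Ccny and 1.87 at Fosl2 on the log2 scale.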

How the results depend on the processing

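Each alternative changed 1 choice, and those by library number were chosen after seeing the data. Members opened at 16 h (66) numbered 31 among the later mice, 23 with a mean of at least 50, 122 under median centring or quantile normalization and 36 with only the compared groups. Members closed at 16 h (32) numbered 20 among the earlier and 7 among the later mice, 9 with the mean filter, 12 with centring, 9 with the compared groups and 6 with quantile normalization. Members opened at 24 h (227) numbered 108 among the later mice and 58 with the mean filter. The 1 closed at 24 h became 0 within either set of mice, with the mean filter and with quantile normalization. Members higher in fed mice at ZT12 (123) numbered 15 among the earlier mice and 49 with the mean filter. Higher fasting effects at 24 h (51) numbered 33 among the earlier and 20 among the later mice, 7 with the mean filter, 23 with no variance trend and 20 with the compared groups. Of the 104 hepatocyte peaks, the mean filter gave 31, 28, 17 and 24 opened at 3, 8, 16 and 24 h, and 0 closed at 16 and 24 h. The compared groups gave 16 opened and 0 closed at 16 h, quantile normalization 0 closed at 16 h, and centring 4 closed at 24 h. Leaving out 1 mouse gave 50 to 76 members opened and 16 to 47 closed at 16 h, 183 to 223 and 0 to 1 at 24 h, 79 to 128 higher in fed mice at ZT12, and 24 to 71 with a higher effect at 24 h. In hepatocytes it gave 58 to 74 opened at 3 h, 55 to 77 at 8 h, 19 to 33 opened and 1 to 4 closed at 16 h, and 34 to 45 and 1 to 3 at 24 h. The rule itself found 378 to 442 members, 497 with centring, 433 with an offset of 0.5 and 316 with an offset of 8. Of 76 results for named peaks, 26 gained or lost a call and 0 reversed. The cause of these moves was not tested, beyond the fewer peaks or mice that a filter or set leaves. The planned edgeR and DESeq2 fits on inferred reads were left out, although 100% of values in every library were whole multiples of the inferred read within 0.01 of a read. No paired analysis was possible because the replicate numbers follow accession order. With the library-number set as a block, 73 members were opened and 36 closed at 16 h, 232 and 1 at 24 h, 137 were higher in fed mice at ZT12 and 62 had a higher effect at 24 h.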
